A study of Mus musculus with 4 samples.

Results

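Called ATAC-seq peaks were examined in 6 windows of the mm9 mouse genome that hold Dnmt1, Dnmt3a, Dnmt3b, Dnmt3l, Tet1 and Tet2, the writers and erasers of DNA methylation. A peak belonged to a window if its midpoint lay inside it, and peaks of different libraries that shared at least 1 bp were merged into 1 region. The windows hold 25 of the 50231 merged regions of the series. The rule that assigns a region to a window uses its position only.

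The cells were J1 embryonic stem cells, a mouse line of strain 129SV, in a DR+/+ and a DR-/- population with 2 libraries each. DR+/+ cells were positive for MERVL, an endogenous retrovirus active in the early embryo, and for Zscan4c, a gene of the same early stage. DR-/- cells were negative for both. All cells were cultured without feeders on gelatin with serum and leukemia inhibitory factor (LIF), and the sources used here do not say how the populations were separated or whether replicates came from separate cultures. In ATAC-seq the transposase Tn5 cuts and tags accessible DNA, and a peak is a stretch where reads pile up above the local background. The labels were not checked against MERVL or Zscan4c here, since no mm9 annotation was used.

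DNA methylation in mammals is the addition of a methyl group to cytosine, mostly where it precedes guanine (CpG). Dnmt1 copies the pattern onto the new strand after replication, Dnmt3a and Dnmt3b methylate unmarked sites, and Dnmt3l has no catalytic activity of its own but stimulates the Dnmt3 enzymes. Tet1 and Tet2 oxidise the methyl group, which opens the way to its loss, and are the Tet enzymes of embryonic stem cells.

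The windows covered 750 kb in all. They run on chromosome 9 from 20690000 to 20790000 for Dnmt1 and on chromosome 12 from 3730000 to 3930000 for Dnmt3a. The Dnmt3b window runs on chromosome 2 from 153440000 to 153540000, and the Dnmt3l window on chromosome 10 from 77480000 to 77550000. For Tet1 it runs on chromosome 10 from 62240000 to 62380000 and for Tet2 on chromosome 3 from 133100000 to 133240000. A region in a window is not assigned to the gene, and whether it lies at a promoter, exon or intron was not analysed here. In RefSeq's GRCm38.p6 gene order, Aire overlaps Dnmt3l, and the nearest coding genes are Eif3g and S1pr2 beside Dnmt1, Dtnb and Pomc beside Dnmt3a, and Commd7 and Mapre1 beside Dnmt3b. The same order places Pfkl and Icosl beside Dnmt3l, Ccar1 and Slc25a16 beside Tet1, and Ppa2 and Cxxc4 beside Tet2. The region nearest to a window's edge on the inside lay 2.587 kb within the Dnmt1 window and was called in 2 libraries. The nearest on the outside lay 3.107 kb past the Tet1 window and was called in 3 libraries.

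The promoter letters of the 2 genes whose windows held no region in all 4 libraries, Dnmt3b and Dnmt3l, are shown because these promoters differ widely in CpG content. Both are RefSeq sequences of GRCm38.p6, plus strand, 5′ to 3′, and end before the first annotated transcribed base. CG dinucleotides are in capitals. They lie at chr2:153649199-153649410 and chr10:78042037-78042286 of that build, positions that cannot be set against the mm9 peaks.
Dnmt3b: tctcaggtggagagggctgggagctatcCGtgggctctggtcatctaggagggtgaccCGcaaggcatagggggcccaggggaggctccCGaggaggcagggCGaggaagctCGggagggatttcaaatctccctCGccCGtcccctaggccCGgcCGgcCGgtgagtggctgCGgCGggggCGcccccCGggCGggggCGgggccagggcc
Dnmt3l: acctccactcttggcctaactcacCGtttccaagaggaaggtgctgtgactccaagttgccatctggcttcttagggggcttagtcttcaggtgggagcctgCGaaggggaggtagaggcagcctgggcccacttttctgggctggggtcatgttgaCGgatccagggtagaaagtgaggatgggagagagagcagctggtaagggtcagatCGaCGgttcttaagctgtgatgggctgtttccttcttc
The Dnmt3b stretch holds 16 CG in 212 bases and the Dnmt3l stretch 5 in 250. Over the full RefSeq promoter of 300 bases (250 before the start, 50 after), the single Dnmt3b promoter holds 30 CG and the first of 3 Dnmt3l promoters holds 6. At least as many CG are found in 11.7% and 56.4% of the 32851 mouse promoters of that length, whose median is 7, and 94.6% of which hold at least 1. CG reads the same on both strands. The Tet2 promoter holds 57 CG, a number reached by 0.152% of promoters, and the Tet1 promoter 17, reached by 31.4%. Dnmt3a has 3 promoters in the table, with 46, 47 and 18 CG, and Dnmt1 has 3, with 2, 12 and 33. All 6 genes were matched by symbol.

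List lengths were 40933 and 26866 peaks for DR+/+ and 21630 and 24432 for DR-/-; here and below a pair of values follows the order of replicates 1 and 2. Read totals are not given in the lists, but the number of reads stacked at each summit follows from the peak's fold enrichment and p-value. The median was 15 or 16 reads per peak in every list and the smallest 7 or 8, so a site missing from a list may still be accessible below that list's threshold. In the regions called in all 4 libraries, the median was 23 and 19 reads in DR+/+ and 17 and 19 reads in DR-/-. Unscaled reads are therefore not directly comparable between libraries.

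Recurrence in all 4 libraries was most frequent in the Tet2 window, at 4 of its 5 regions, and the Dnmt3b and Dnmt3l windows held no such region. Of the 25 regions, 8 were called in all 4 libraries (32%, 95% Wilson interval 17.2 to 51.6%), where 24.7% of all merged regions were. These are referred to as common regions. The Tet2 window held 4 of them, the Tet1 window 2, and the Dnmt1 and Dnmt3a windows 1 each. Of the other regions, 4 were called in 3 libraries, 6 in 2 libraries and 7 in a single library. Single-library regions made up 28% (14.3 to 47.6%) in the windows and 44.1% over all regions. The intervals hold the shares of all regions, so the windows were not distinguishable from the rest at this number of regions. These intervals cover counting error only. Set side by side after the values were seen, 6 of 9 regions in the Tet windows and 2 of 16 in the Dnmt windows were common. Of the 6 in the Tet windows, 4 were in the Tet2 window.

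**Figure D1:**
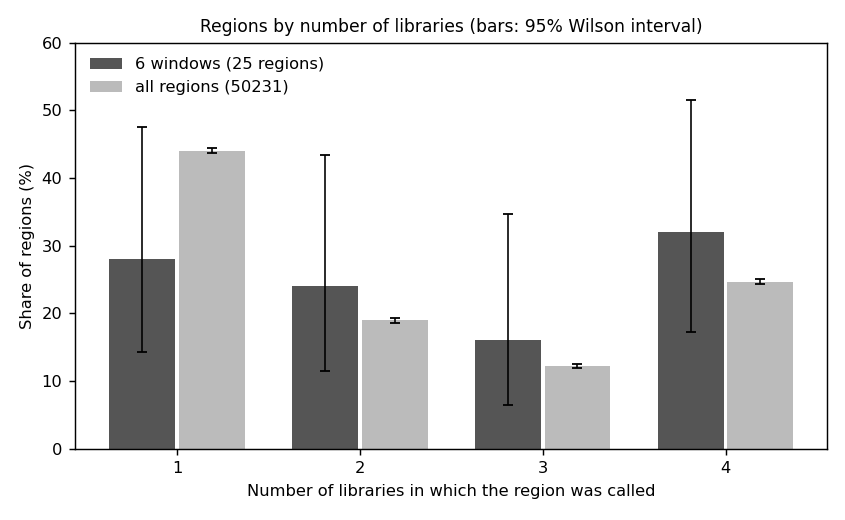
Share of regions (%) by the number of libraries in which they were called, for the 25 regions of the 6 windows and for all 50231 regions, with 95% Wilson intervals. The window shares of 28% in 1 library and 32% in 4 libraries have intervals that include the shares of all regions.

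No region in the windows was called in both libraries of 1 population and in neither of the other. The count was 0 of 25 for DR+/+ alone, where 9.08% of all merged regions have this pattern, and 0 of 25 for DR-/- alone, where 1.38% do. A count of 0 in 25 allows a share of up to 12%, so neither share differs detectably from the background. The 6 regions called in exactly 2 libraries comprised 3 of DR+/+ replicate 1 with DR-/- replicate 2, a pattern of 4.28% of all merged regions. A further 2 were of DR+/+ replicate 1 with DR-/- replicate 1 (2.74% of all), and 1 was of DR+/+ replicate 2 with DR-/- replicate 2 (0.898% of all). Presence was not tested per region, since 2 against 2 libraries cannot pass 0.05 in an exact test. When only the stronger 50% of each list was used, 1 of 13 regions, at Tet1, was called in both DR+/+ libraries alone, against 9.03% of all regions under that setting. When the lists were cut to 21630 peaks each, 1 of 19 regions, at Dnmt1, was called in both DR-/- libraries alone, against 4.17% of all.

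The libraries placed 22 and 13 peaks in the windows in DR+/+, and 14 and 16 in DR-/-. As a share of each list these were 0.0537% and 0.0484% for DR+/+, and 0.0647% and 0.0655% for DR-/-. The means were 0.0511% ± 0.00379 and 0.0651% ± 0.000539 (SD, n = 2 each; exact two-sided permutation test, p = 0.333). That p is the smallest that 2 against 2 libraries allow. Both DR+/+ shares lay below both DR-/- shares, while the longest list, DR+/+ replicate 1, had the highest number of peaks. The peaks covered 5202 and 3435 bp of the windows in the DR+/+ libraries and 2914 and 3329 bp in the DR-/- libraries.

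**Figure D2:**
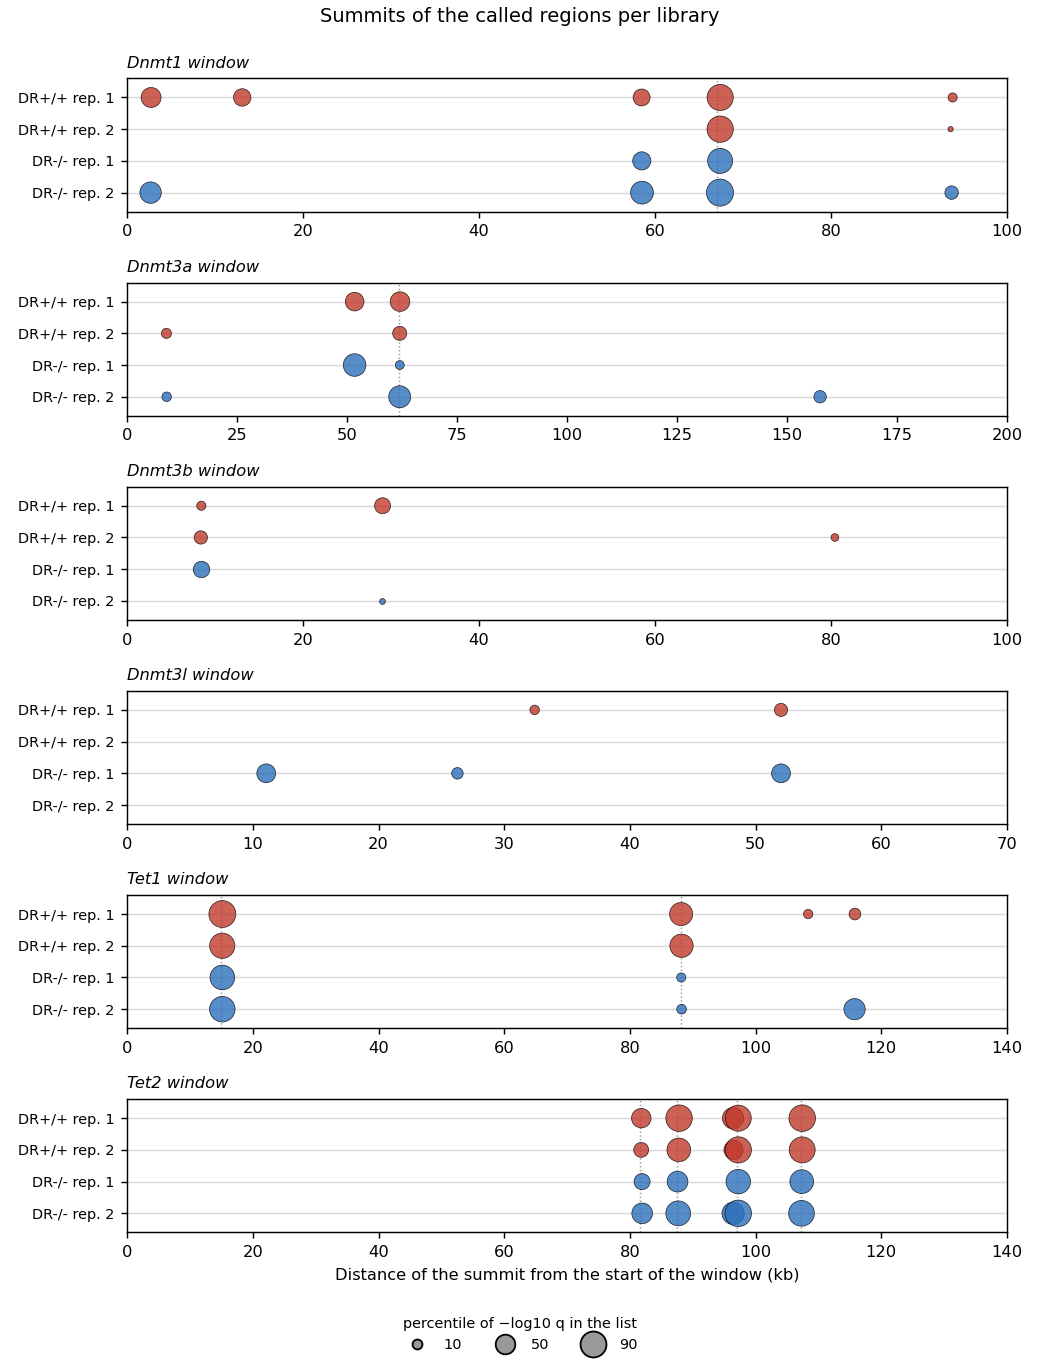
Summits of the called regions in each window, in kb from the window's start, with 1 row per library (red, DR+/+; blue, DR-/-). Circle area grows with the percentile of −log10 q within the list, and dotted lines mark the starts of the 8 common regions, 4 of them at Tet2.

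Dnmt1, the maintenance methyltransferase, had 5 regions in its 100 kb window. Of 26375 consecutive genome tiles of that length, 9.66% held as many or more, and the median tile held 1. The region at positions 20756995 to 20757571 was called in every library and had the highest mean percentile of all 25, 91.7. Percentiles rank the −log10 q of a peak within its own list. The summit carried 27 and 25 reads in DR+/+ and 21 and 37 reads in DR-/-. The deposited fold enrichments over local background were 7.55 and 7.69 in DR+/+ and 6.39 and 8.89 in DR-/-. DR-/- replicate 2 was highest and DR-/- replicate 1 lowest in both, so the populations overlapped. Relative to the list's median over common regions, the reads were 1.17 and 1.32 in DR+/+ and 1.24 and 1.95 in DR-/-. These overlapped too, with DR+/+ replicate 1 lowest. Its summits fell within 25 bp of each other, at 20757389 to 20757414.

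This Dnmt1 region was wider in both DR+/+ lists. Its peaks measured 498 and 535 bp in DR+/+, and 205 and 270 bp in DR-/-. In DR+/+ replicate 1 the width is the sum of 2 neighbouring peaks, whereas the other lists had 1 peak. Relative to the median width of common regions in the same list, the values were 1.61 and 2.04 in DR+/+ and 0.903 and 1.10 in DR-/-. The log2 difference was 0.864 ± 0.274 (SE, n = 2 each), a 1.82-fold width, with an unadjusted p of 0.0166. It did not pass limma's test after Benjamini-Hochberg adjustment over all 12412 common regions (adjusted p = 0.398). Over 9 alternatives the difference stayed between 0.695 and 1.03. Where all 4 libraries were kept, limma's adjusted p ran from 0.333 to 0.516. The fits without a library kept the regions merged from all 4 lists. Merged anew without DR+/+ replicate 2, the stretch 20756995 to 20757168 becomes a separate region, called in DR+/+ replicate 1 alone. The 0.695 from that omission still sums both peaks, so the range does not show the difference without their joining. With that stretch left out of the sum, DR+/+ replicate 1 falls below the 1.10 of DR-/- replicate 2 in scaled width. The populations then overlap on that scale, though in bp both DR+/+ widths stay above both DR-/- widths.

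The other Dnmt1 regions were weaker. At 20748403 to 20748617, a region was called in all libraries but DR+/+ replicate 2, with 13 reads in DR+/+ replicate 1 and 14 and 19 reads in DR-/- replicates 1 and 2. Another, at 20783592 to 20783929, was missing in DR-/- replicate 1 and had 11 to 16 reads, and its peak in DR+/+ replicate 2 ranked at percentile 0.246, near that list's threshold. The next, at 20692587 to 20692792, was called with 18 reads in DR+/+ replicate 1 and with 20 in DR-/- replicate 2. The last, at 20703020 to 20703157, was called in DR+/+ replicate 1 alone, with 15 reads.

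Dnmt3a, a de novo methyltransferase, had 4 regions in 200 kb, and 44.3% of tiles of that length held as many or more. One was common, at 3791873 to 3792062, and with 190 bp it was the narrowest of the 8. Its summit carried 15 and 12 reads in DR+/+ and 10 and 17 reads in DR-/-. The populations overlapped, with DR-/- replicate 1 lowest and DR-/- replicate 2 highest. Within the lists it ranked at percentiles from 7.38 (DR-/- replicate 1) to 63.5 (DR-/- replicate 2). Peak widths were 122 and 124 bp in DR+/+ and 110 and 175 bp in DR-/-.

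Before it on the chromosome, at 3781615 to 3781797, a region was called in replicate 1 of each population, with 13 reads in DR+/+ and 17 reads in DR-/-, and summits 10 bp apart. A region at 3738900 to 3739037 was called in replicate 2 of each population, with 10 reads in both. The region at 3887445 to 3887566 was called in DR-/- replicate 2 alone, with 15 reads. None of these 3 was in more than 1 library of a population.

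Dnmt3b, the other de novo enzyme, had 3 regions in 100 kb, a number reached by 29.4% of tiles, and none was common. The most recurrent, at 153448326 to 153448528, was called in DR+/+ replicates 1 and 2 (10 and 11 reads) and in DR-/- replicate 1 (12 reads), and not in DR-/- replicate 2. It was weak in all 3, at percentiles from 8.11 to 34.2. The region at 153468886 to 153469068 was called in DR+/+ replicate 1, with 13 reads, and DR-/- replicate 2, with 11, and that at 153520422 to 153520536 had 10 reads in DR+/+ replicate 2 alone. No Dnmt3b peak held more than 13 reads at its summit.

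Dnmt3l, the inactive cofactor, had 4 regions in 70 kb, a number reached by 8.93% of tiles, and all were found in replicate 1 libraries only. Of all merged regions, 26.9% were called in DR+/+ replicate 1 alone, 4.33% in DR-/- replicate 1 alone and 2.74% in exactly these 2 libraries. Regions in replicate 1 libraries only are thus frequent, mostly through the longest list, that of DR+/+ replicate 1. Of the 4 here, however, only 1 was in that list alone. Another 2 were in DR-/- replicate 1 alone, the shortest list, and 1 was in both. Neither DR+/+ replicate 2 nor DR-/- replicate 2 had a peak in this window. The region at 77531954 to 77532087 was called in replicate 1 of both populations, with 13 reads in DR+/+ and 14 reads in DR-/- and the summit at the same base, 77532030. DR-/- replicate 1 alone had regions at 77490990 to 77491093 (14 reads) and 77506230 to 77506453 (12 reads). DR+/+ replicate 1 alone had 1, at 77512267 to 77512437, with 12 reads.

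Tet1, an eraser, had 4 regions in 140 kb, with 28.4% of tiles holding as many or more. Its stronger common region, at 62254977 to 62255353, carried 36 and 23 reads in DR+/+ and 24 and 26 reads in DR-/-. The deposited fold enrichments were 8.47 and 6.21 in DR+/+ and 5.46 and 6.28 in DR-/-. DR+/+ replicate 1 was highest and DR+/+ replicate 2 lowest in reads, so the populations overlapped. Widths were 331, 341 and 351 bp in DR+/+ replicates 1 and 2 and DR-/- replicate 1, and 206 bp in DR-/- replicate 2. All 4 summits lay within 17 bp.

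The second common Tet1 region, 72.7 kb further along at 62328063 to 62328347, showed the widest separation of the populations by rank among the 8 common regions. It carried 20 reads in both DR+/+ libraries, and 13 and 14 reads in DR-/- replicates 1 and 2. The deposited fold enrichments were 5.44 and 5.31 in DR+/+ and 3.68 and 3.67 in DR-/-. Its percentiles were 70.6 and 72.2 in the DR+/+ lists and 7.91 and 9.40 in the DR-/- lists, though ranks in lists of unequal length do not measure a change. Relative to the list's median over common regions, the reads were 0.870 and 1.05 in DR+/+ and 0.765 and 0.737 in DR-/-. The groups did not overlap, and the log2 difference was 0.35 ± 0.219 (SE, n = 2 each; limma, Benjamini-Hochberg adjusted p = 0.532). Both DR-/- peaks ranked in the weaker part of their lists, so this is the Tet1 region called only in DR+/+ when the weaker 50% of each list was left out.

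Of the other Tet1 regions, that at 62355712 to 62355852 was called in DR+/+ replicate 1 (17 reads) and DR-/- replicate 2 (20 reads). The remaining one, at 62348346 to 62348469, was called in DR+/+ replicate 1 alone, with 15 reads.

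Tet2, the second eraser, had 5 regions in 140 kb, a number reached by 18.7% of tiles, and 4 of them were common. These 4 lay within 26.3 kb, separated by gaps of 5.456, 9.049 and 9.764 kb, and outside this stretch the window held no peak in any list. The peaks in the window covered 2345 and 1788 bp in DR+/+ and 1202 and 1472 bp in DR-/-. Both DR+/+ lists thus covered more of the window, as they did of the genome.

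The first common Tet2 region, at 133181642 to 133182039, carried 18 and 16 reads in DR+/+ and 16 and 18 reads in DR-/-. Relative to each list's common median these were 0.783 and 0.842 in DR+/+ and 0.941 and 0.947 in DR-/-, so the DR+/+ values lay below the DR-/- values. The log2 difference was -0.22 ± 0.219 (SE, n = 2 each; limma, adjusted p = 0.750). Its widths were 387 and 291 bp in DR+/+ and 125 and 309 bp in DR-/-.

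The second, at 133187496 to 133188078, carried 32 and 21 reads in DR+/+ and 17 and 23 reads in DR-/-, so the populations overlapped. Its peaks measured 583 and 457 bp in DR+/+ and 333 and 397 bp in DR-/-. Scaled to each list's common median the widths were 1.89 and 1.74 in DR+/+ and 1.47 and 1.61 in DR-/-, without overlap, and the log2 difference was 0.236 ± 0.252 (SE, n = 2 each; limma, adjusted p = 0.811). Its summits were the most spread of the 8 common regions, over 242 bp, where the median of all common regions was 80 bp. They lay at 133187833 and 133187789 in DR+/+ and at 133187591 and 133187699 in DR-/-.

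The next common region, at 133197128 to 133197396, was the most sharply placed of the 8, with all summits within 16 bp. It carried 33 and 29 reads in DR+/+ and 23 and 32 reads in DR-/-. The deposited fold enrichments were 6.02 and 6.51 in DR+/+ and 5.56 and 6.98 in DR-/-, and the populations overlapped. It ranked at percentile 79.8 or above in every list. Only 294 bp before it, at 133196363 to 133196833, lay the one Tet2 region that was not common, called with 23 and 19 reads in DR+/+ replicates 1 and 2 and 22 reads in DR-/- replicate 2.

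The last, at 133207161 to 133207963, was the widest of the 25 regions, at 803 bp. It carried 34 and 28 reads in DR+/+ and 20 and 27 reads in DR-/-. Relative to the common median these were 1.48 and 1.47 in DR+/+ and 1.18 and 1.42 in DR-/-. The populations did not overlap on this scale, but the log2 difference of 0.191 ± 0.219 (SE, n = 2 each) did not pass limma's test (adjusted p = 0.796). Peak widths were 655 bp (2 peaks) and 494 bp in DR+/+ and 540 and 378 bp in DR-/-.

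**Figure D3:**
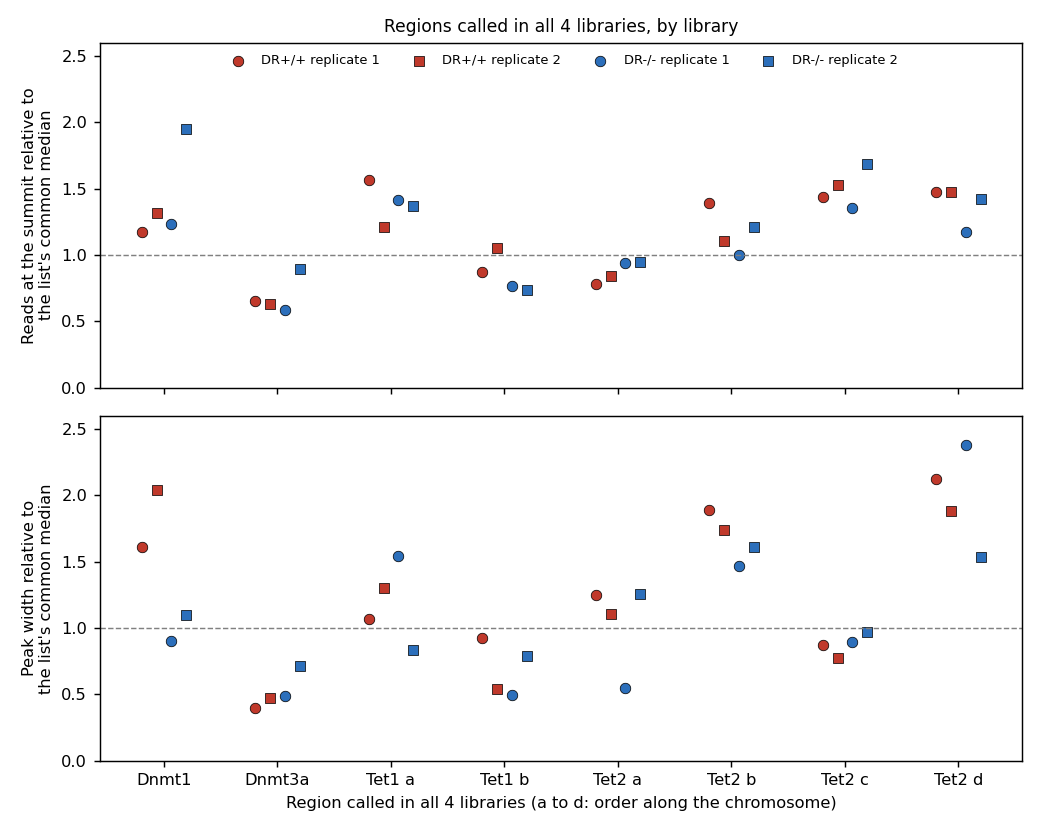
Reads at the summit (upper panel) and peak width (lower panel) of the 8 common regions in each library, divided by the median of all common regions in the same list, so that 1 is a typical common region. The Dnmt1 widths of the DR+/+ libraries (1.61 and 2.04) lie above those of the DR-/- libraries (0.903 and 1.10), and the populations overlap in 5 of the 8 regions in reads and in 4 of the 8 in width. The Dnmt1 value of 1.61 sums 2 peaks, and the separation in Dnmt1 width depends on that sum.

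None of the 8 common regions passed a test of the difference between the populations. Reads at the summit and widths were compared over all 12412 common regions with limma on log2 values, each library centred on its median. In reads, 52 regions were called higher (0.419%) and 54 lower (0.435%) in DR+/+ at an adjusted p below 0.05, and 0 of the 8 were among them. An unadjusted p below 0.05 from limma was reached in reads by 1514 regions (12.2%), again with 0 of the 8 members. Leaving out any of the 4 libraries lowered the counts called at the adjusted threshold, and with quantile normalization limma called 0. In width, 0 regions were called higher (0%) and 0 lower (0%) with limma, while 1178 (9.49%) had an unadjusted p below 0.05, the Dnmt1 region among them. With limma's prior variance following the mean level 23 regions were called wider in DR+/+, with the replicate block 37, without DR-/- replicate 1 106 and without DR-/- replicate 2 115. None of the 8 members was among them in these fits.

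The differences of the members ranged in reads from -0.32 for Dnmt1 (95% interval -0.75 to 0.11) to 0.35 for the second Tet1 region (-0.08 to 0.78), on the log2 scale. Their median was -0.02, and that of all common regions -0.02. In width they ranged from -0.44 for Dnmt3a (-1.15 to 0.26) to 0.86 for Dnmt1 (0.21 to 1.52), with a median of 0.12 against -0.04 over all common regions. Intervals of this width do not exclude changes of moderate size.

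Both DR+/+ values lay above both DR-/- values in the reads of 2 members, the second Tet1 and the last Tet2 region, a pattern shown by 18.4% of all common regions. Both lay below in 1 member, the first Tet2 region, as in 20.8% of all. In width the DR+/+ values lay above in 2 members, Dnmt1 and the second Tet2 region (18.1% of all), and below in 2, Dnmt3a and the third common Tet2 region (23.1%). These shares do not set the 8 regions apart. The order in Dnmt1 width depends on the sum of 2 peaks in DR+/+ replicate 1.

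**Figure D4:**
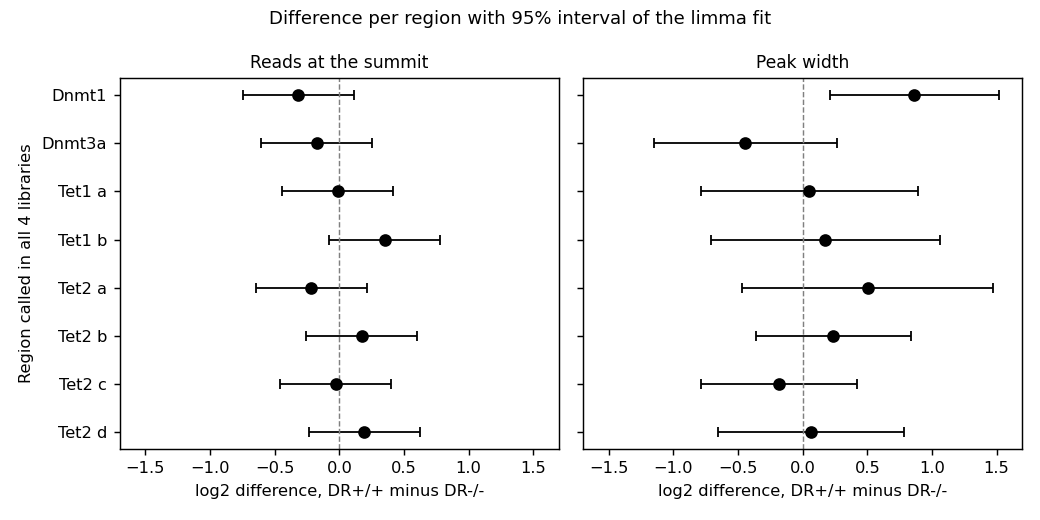
Log2 difference between DR+/+ and DR-/- in reads at the summit (left) and peak width (right) for the 8 common regions, with 95% intervals of the limma fit. Every interval includes 0 except that of the Dnmt1 width (0.21 to 1.52), which did not pass the adjusted test.

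The strength of the common regions varied within a gene's window as well as between windows. Their mean percentiles over the 4 lists were 91.7 at Dnmt1, 89.2, 87.1, 76.7 and 41.1 at Tet2, 87.4 and 40.0 at Tet1 and 36.2 at Dnmt3a. Their median of 81.9 compares with 69.4 over all common regions (interquartile range 53.3 to 84.5). The members at 91.7, 89.2, 87.4 and 87.1 lay above the upper quartile of all common regions. Those at 41.1, 40.0 and 36.2 lay below the lower quartile. They were 190 to 803 bp wide as merged regions, with a median of 387.5 bp against 367 bp over all common regions. The 17 other regions were weaker in the libraries that called them, with 10 to 23 reads at the summit (median 14). The common ones had 10 to 37 reads (median 22), and the ranges overlapped. A common region must pass the threshold in every list, so this contrast follows in part from the definition.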

How the data were processed

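ATAC-seq was measured in 4 libraries, grouped and numbered by their titles. The mm9 build, SAMtools 0.1.19, Bowtie2 2.3.0 and FastQC 0.10.1 are named, without roles, per the submitters' processing notes. Not given in the sources used here are the peak caller and how duplicates and reads with several matches were handled. The authors deposited 1 peak list per library, so replicates were not pooled. Each deposited peak has a score (10 times −log10 q, cut to a whole number in 99.95% or more of each list), a fold enrichment (ratio), a −log10 p-value, a −log10 q-value (smallest 1.31 to 1.32) and a summit offset; all are the authors' values for 1 library and were used here to describe and rank peaks within it.

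Reads at the summit were recovered as the whole number k for which (k + 1)/(background + 1) equals the fold and the Poisson upper tail lies within 0.001 of the deposited −log10 p; this held for 100% of peaks. Where a list had several peaks in a region, the strongest gave the reads and summit and their widths were summed. Log2 reads and widths of the regions common to all 4 lists were compared with limma 3.58.1 (R 4.3.3), with Benjamini-Hochberg adjustment at 0.05. Python 3.11.15, pandas 2.3.3, NumPy 2.4.6, SciPy 1.17.1 and Matplotlib 3.10.9 did the rest. Code was tested on simulated data. P-values measure the spread between these libraries, which may be technical. In reads, limma used a single spread pooled over all 12412 common regions, so every region had the same SE of 0.219. A region's own spread did not enter its p-value or interval in reads. In width the SE differed between regions, as each region's own spread entered in part.

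The 6 members and their windows were chosen with earlier results of these data known. Named one by one were, by rule, the 2 common regions of highest mean percentile in each window, the widest and any population-specific region; the others were added after their values were seen. Alternatives were 50% reciprocal overlap, the stronger 50% of each list, merging over 500 bp, lists of equal length, assignment by any overlap, each library left out, a replicate block, quantile normalization, scaling by the lowest background, at least 12 reads at the summit, and, added after seeing the data, a variance trend.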

Additional observations from a re-analysis of the deposited data

How the results depend on the processing

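Peak lists show presence above each library's own q threshold, and 2 libraries a population limit every comparison. The threshold is not a fixed number of reads. The smallest peak of a list held 7 or 8 reads, yet a Dnmt1 peak with 11 reads ranked at percentile 0.246 in DR+/+ replicate 2. The count of 8 common regions was 5 with the stronger 50% of each list and 5 with 50% reciprocal overlap, and between 7 and 10 in the other alternatives. The count of DR+/+-only regions, 0, was 1 with the stronger 50% of each list and 1 to 4 when a library was left out. It was 1 without DR+/+ replicate 1, 4 without DR+/+ replicate 2, 1 without DR-/- replicate 1 and 1 without DR-/- replicate 2, where the shares of all regions were 22.8%, 39.0%, 12.7% and 15.0%. One of the 4 arose because the Dnmt1 region then split into 2. DR-/--only regions, also 0, numbered 1 with lists of equal length and 0 to 2 when a library was left out, where the shares of all regions were 6.56%, 2.15%, 7.50% and 6.10% in the same order. Each omission loosens both definitions, as 1 fewer list must hold the region for the reduced population and 1 fewer must lack it for the other. Assignment by any overlap, and merging over 500 bp, left all 3 counts as they were.

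Of the 12412 common regions, the 52 higher in reads in DR+/+ became 34 with the replicate block, 0 with quantile normalization, 8 in regions of the stronger 50% of every list, 3 with scaling by the lowest background, 17 with the variance trend and 1 to 9 when a library was left out. The 54 lower in reads became 0 with quantile normalization, 24 with at least 12 reads at the summit, 19 in regions of the stronger 50%, 8 with scaling by the lowest background, 22 with the variance trend and 1 to 34 when a library was left out. In width, the 0 higher became 37 with the replicate block, 23 with the variance trend and 0 to 115 when a library was left out, and the 0 lower became 0 to 4 when a library was left out. The cause was not tested. In 77 alternative values for the reads and 69 for the widths of the 8 members, limma called 0, with a smallest adjusted p of 0.339 and 0.235, and the sign changed in 9 and 7 of them. The difference in the share of peaks in the windows, -0.0140 percentage points, was -0.0284 with the stronger 50% of each list. Leaving out a library could not turn its direction, since the populations' shares did not overlap. Same-numbered libraries did not deviate together over the common regions (correlation of -0.0182 in reads and -0.000338 in width), so the replicate numbers were not taken as pairs.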
